A study of Mus musculus with 2 samples.

Results

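The Hox genes encode homeodomain transcription factors that give cells their address along the body axis. They lie in the clusters Hoxa, Hoxb, Hoxc and Hoxd, and every symbol made of Hoxa, Hoxb, Hoxc or Hoxd and digits alone was taken here. A probe set with exactly 1 gene symbol was available for 37 Hox genes of 19938 measured genes, 10 in Hoxa and 9 in each of Hoxb, Hoxc and Hoxd. Each of the 37 had a single probe set. Hoxb8 had none of its own, since the only probe set naming it also named Hoxb7, with log2 values of 4.22 (control siRNA) and 4.45 (β-catenin siRNA), which cannot be assigned to either gene.

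The study used dermal cells from the dorsal skin of newborn C57BL/6 pups (postnatal day 0). All cells were grown in DMEM with 10% fetal bovine serum for 24 h and then exposed to 10 nM siRNA for 48 h. The control group received control siRNA (1 array) and the other group siRNAs specific for β-catenin (1 array). β-catenin is the protein product of Ctnnb1, a junction protein and the transcriptional effector of Wnt signalling. Nothing in the labels says how many pups or cultures stood behind an array, and they name no sorting of the primary cells. Other body sites were not analysed here. With 1 array per group no difference could be compared with the spread between cultures, and no p-value or standard deviation between replicates is given. The SDs below are over genes or probe sets. In such bulk cultures a lower signal from fewer expressing cells and one from less RNA per cell cannot be told apart.

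Within a cluster, Hox genes lie in the order of their paralog numbers. In the embryo, low-numbered genes are switched on first and up to anterior levels, and high-numbered genes later and more caudally, an arrangement called collinearity. Genes of one number in different clusters are paralogs with overlapping roles. Fibroblasts keep much of this positional pattern in culture, so that skin fibroblasts of trunk, limb and digit can be told apart by their Hox transcripts. Polycomb proteins keep unused Hox genes silent, trithorax proteins keep used ones active, and retinoic acid, Wnt and FGF signals set the pattern in the embryo.

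The culture carried the signals of dermal fibroblasts. All 11 measured fibroblast markers passed the level filter, with control values from 6.60 (Lum) to 12.77 (Col1a1) on the log2 scale. After β-catenin siRNA 4 of these 11 were at least 1.5-fold higher, with differences of 1.29 (Lum), 1.13 (Dpt), 0.84 (Dcn) and 0.75 (Pdgfra), and none was that much lower. The filter asked that the higher of a gene's 2 values reach the median of all gene means, 5.13. No measured marker of skeletal muscle (4 genes), macrophages (4 genes) or Schwann cells (1 gene) passed it, while 4 of 6 keratinocyte, 3 of 5 melanocyte and 1 of 4 endothelial markers did. The 4 kept keratinocyte markers were all higher after β-catenin siRNA, where 4671 of all 10197 kept genes were higher and 5386 lower. Among the 4 were Krt5 (7.64 with control siRNA and 8.65 with β-catenin siRNA, the order of all pairs of values below) and Krt14 (8.03 and 8.65). Epcam (4.76 and 5.26) reached the filter only on the β-catenin siRNA array, so its direction was fixed by the filter. The other 3 reached it on both arrays. Krt15 (4.30 and 3.75) and Trp63 (4.61 and 4.62) stayed under the filter. The part of fibroblast and keratinocyte shifts in the Hox values was not tested. The target Ctnnb1 had log2 values of 10.48 with control siRNA and 9.34 with β-catenin siRNA.

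Hox signal was concentrated in the middle of the clusters. Of the 37 genes, 16 (43.2%) passed the level filter, against 51.1% of all genes, and all 16 did so on both arrays. By paralog number, 3 of 7 measured genes of groups 1 to 3 passed, 13 of 18 of groups 4 to 9, and none of 12 of groups 10 to 13. The limit between 9 and 10 was drawn after the values were seen. Control medians were 4.99, 5.51 and 4.14 (log2) in the 3 ranges. No Hox gene of groups 10 to 13 exceeded 4.79 on the control array. Probe sets differ in how strongly they bind their transcript, so the values place each gene among all genes of its array and do not rank Hox transcripts by abundance. Detection calls were not used, so a gene under the filter is dim and cannot be called absent.

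**Figure D1:**
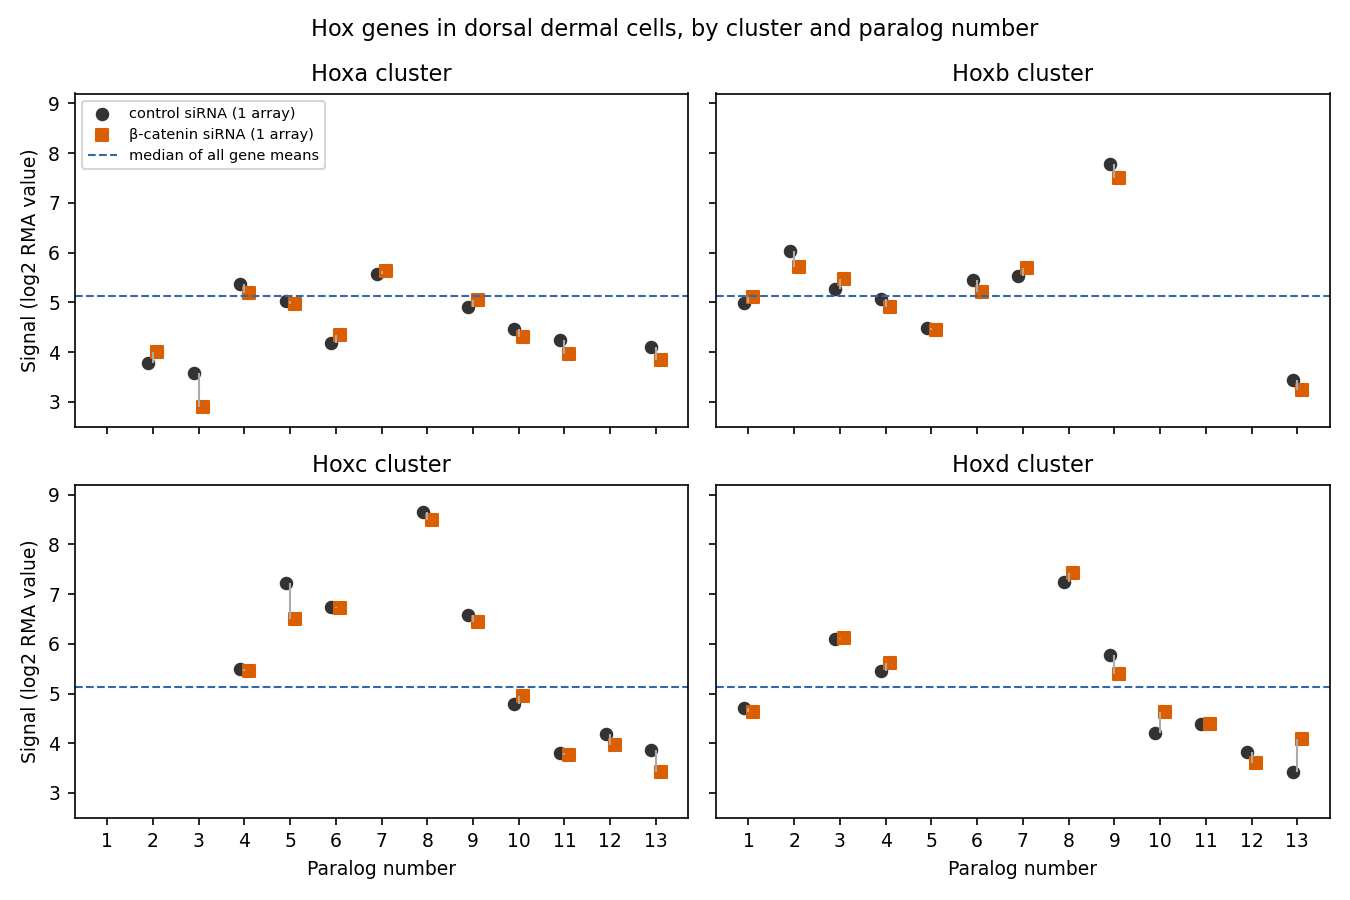
Log2 RMA signal of each measured Hox gene against its paralog number, 1 panel per cluster; circles are the control siRNA array, squares the β-catenin siRNA array, and the dashed line is the median of all gene means (5.13). Genes with numbers 10 to 13 lie under the line in every cluster, and Hoxc8, Hoxb9 and Hoxd8 stand at 7.24 or higher on both arrays.

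The brightest members belonged to groups 8 and 9, whose genes pattern the thoracic and upper lumbar trunk. Hoxc8, known for its part in patterning thoracic vertebrae and brachial motor neurons, had values of 8.64 with control siRNA and 8.48 with β-catenin siRNA. These lay at the 91.2nd and 90.2nd percentile of all genes of each array. Hoxb9, which acts with its paralogs on the thoracic rib cage, had 7.79 and 7.50 (percentiles 83.4 and 80.0). Hoxd8 had 7.24 and 7.43 (percentiles 76.6 and 79.0). Hoxc9, a thoracic gene that sets the border between brachial and thoracic motor neurons, had 6.57 and 6.44, and Hoxd9 had 5.78 and 5.39. Hoxa9, better known from blood stem cells and leukaemia, had 4.91 and 5.04, just under the filter and the only measured member of groups 8 and 9 to miss it.

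The measured central genes of the Hoxc cluster passed the filter as a row, and all of them but Hoxc4 were bright. Hoxc5 had values of 7.23 and 6.50 and Hoxc6, a thoracic gene also expressed in the developing mammary gland, 6.74 and 6.73. Hoxc4, the 3′-most gene of the cluster, had 5.49 and 5.46, near the median of the array (percentiles 53.9 and 53.5). With Hoxc8 and Hoxc9, all 5 measured Hoxc genes from 4 to 9 passed the filter, and all 4 from 10 to 13 missed it. Only 4 Hox genes lay above the 75th percentile of the control array, and these were Hoxc8, Hoxb9, Hoxd8 and Hoxc5.

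Other central genes were near the median of the array. Hoxb6 had 5.45 and 5.21, Hoxb7 had 5.53 and 5.68, Hoxa7 had 5.57 and 5.62, Hoxd4 had 5.45 and 5.62, and Hoxa4 had 5.37 and 5.18. Hoxa4 and Hoxb6 stood nearest above the filter. Hoxb4, a regulator of blood stem cell growth, had 5.07 and 4.91, and Hoxa5, which is needed for lung and cervical vertebra development, 5.04 and 4.96. Both lay just under it, as did Hoxb1 (4.99 and 5.11). Hoxb5 (4.48 and 4.44) and Hoxa6 (4.18 and 4.34) were dimmer.

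Of the anterior genes, Hoxd3, Hoxb2 and Hoxb3 passed the filter, and the measured members of group 1 and of Hoxa did not. Hoxd3 had values of 6.10 and 6.13 and Hoxb2 of 6.03 and 5.71. Hoxb2 and Hoxb1 pattern the hindbrain. Hoxb3 had 5.27 and 5.46. Hoxd1, which acts in pain-sensing neurons, had 4.71 and 4.62. Hoxa2, which sets the identity of the second pharyngeal arch, had 3.78 and 4.0, and Hoxa3, needed for thymus and parathyroid formation, 3.59 and 2.89.

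The high-numbered genes pattern the lumbar and sacral trunk, the limbs and the tail. The 3 genes of group 10, which suppress ribs in the lumbar region, had control values of 4.79 (Hoxc10), 4.46 (Hoxa10) and 4.21 (Hoxd10), and β-catenin siRNA values of 4.95, 4.30 and 4.63 in the same order. Group 11 genes, which act in the middle limb and the kidney, were at 4.39 and 4.39 (Hoxd11), 4.23 and 3.95 (Hoxa11) and 3.81 and 3.75 (Hoxc11). Hoxc12 had 4.18 and 3.96 and Hoxd12 3.82 and 3.61. Group 13 genes mark the digits, the genital region and the tail. Hoxa13 had 4.11 and 3.84, Hoxc13 3.86 and 3.42, Hoxb13 3.45 and 3.25, and Hoxd13 3.42 and 4.09. Hoxc13 also drives keratin genes of the hair shaft and nail, in epithelial cells. Of all 37 genes, Hoxd13 had the lowest control value.

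By cluster, 5 of 9 measured Hoxc genes and 5 of 9 Hoxb genes passed the level filter, 4 of 9 Hoxd genes and 2 of 10 Hoxa genes. Control medians over all measured members were 5.49 for Hoxc, 5.27 for Hoxb, 4.71 for Hoxd and 4.35 for Hoxa. The 2 Hoxa genes that passed, Hoxa4 and Hoxa7, reached at most 5.62. RefSeq gene spans overlap for 6 pairs of Hox genes: that of Hoxa3 holds Hoxa4, Hoxa5 and Hoxa6, that of Hoxb3 holds Hoxb4, that of Hoxd3 holds Hoxd4, and those of Hoxd10 and Hoxd11 overlap in part. Long transcripts of 1 gene of such a pair could therefore be read by probes of the other.

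The step from Hoxd9, above the filter, to Hoxd10, under it, separates neighbouring genes whose promoters are both rich in CpG, the dinucleotide of CpG islands, which Polycomb complexes favour. The 200 bases directly before the RefSeq start of each are shown to compare them, with every CpG in capitals (GRCm38.p6, plus strand, chr2:74697563-74697762 for Hoxd9 and chr2:74691691-74691890 for Hoxd10).
Hoxd9: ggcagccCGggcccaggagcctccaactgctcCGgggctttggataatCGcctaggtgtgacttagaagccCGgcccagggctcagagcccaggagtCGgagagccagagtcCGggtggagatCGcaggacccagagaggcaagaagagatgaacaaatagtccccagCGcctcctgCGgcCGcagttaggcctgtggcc
Hoxd10: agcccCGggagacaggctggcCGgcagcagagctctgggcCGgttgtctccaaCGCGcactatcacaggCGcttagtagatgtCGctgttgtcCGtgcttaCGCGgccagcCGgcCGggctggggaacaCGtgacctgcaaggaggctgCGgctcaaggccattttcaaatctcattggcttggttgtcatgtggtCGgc
The stretch before Hoxd9 holds 10 CpGs and that before Hoxd10 holds 15. RefSeq promoter windows of 300 bases were found for 22 Hox genes, 24 windows in all. Their median was 14.5 CpGs (range 4 to 45), against 7 over 32851 windows of all genes. The counts of Hoxd9 and Hoxd10 were closer in these longer windows, with 20 and 22 CpGs. The 6 windows of Hox genes past the level filter had a median of 9 CpGs and the 17 windows of Hox genes under it a median of 20. The former cover 6 of the 16 kept genes (Hoxd3, Hoxd4, Hoxd8, Hoxd9, Hoxa7 and Hoxc4), so the medians do not speak for the rest. The highest count, 45, was that of Hoxa13, a dim gene on both arrays. Several windows of 1 gene share their gene's value, and no cause was tested.

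All but 3 of the 37 measured Hox genes lay within 1.5-fold between the arrays. Of the 16 kept genes, 1 differed by at least 1.5-fold (6.25%), where 4.6% of the 10197 kept genes did so, and that share of the Hox genes rests on 1 gene. None differed by 2-fold, the larger of the fold sizes used, where 1.25% of kept genes did. Lower by any amount were 10 of the 16 and higher 6, against 5386 lower and 4671 higher among all kept genes. The median difference, β-catenin siRNA minus control siRNA, was -0.08 for the kept Hox genes and -0.02 for all kept genes. The robust SD (a spread from the median absolute deviation) was 0.28 among the kept Hox genes and 0.22 among all kept genes. Differences under 0.15 on the log2 scale were found in 5 of the 16 kept Hox genes (31.2%) and 50.7% of all kept genes, and differences under 0.2 in 11 of the 16 (68.8%) and 63.1%. Over all 37 Hox genes, 22 (59.5%) differed by less than 0.2, beside 57.8% of all genes. Their values on the 2 arrays correlated with Pearson's r = 0.976 and Spearman's rho = 0.965 across 37 genes, which share both arrays and are not replicates. The 6 brightest Hox genes of the control array were also the 6 brightest after β-catenin siRNA. Each gene was read by the same probe set on both arrays, and the genes differ widely in level. High correlations and a shared top 6 therefore do not show that the siRNA left the Hox genes unchanged.

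**Figure D2:**
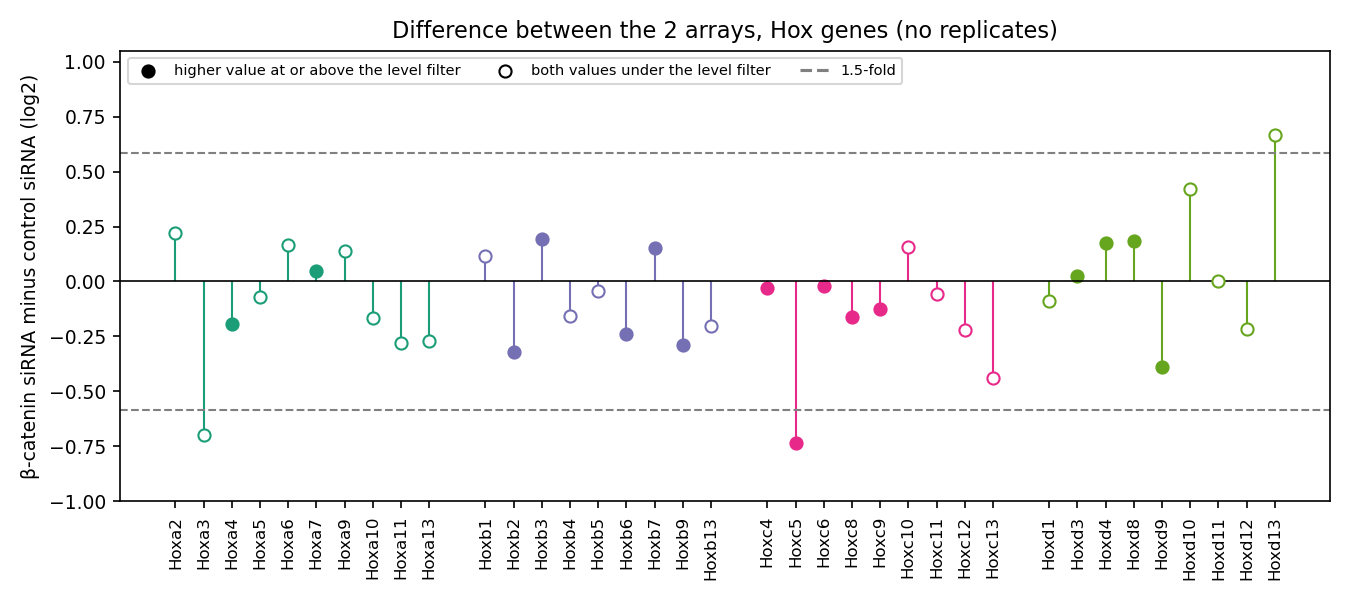
Difference between the arrays (β-catenin siRNA minus control siRNA, log2) for each measured Hox gene, ordered by cluster and paralog number; filled points passed the level filter, open points did not, and dashed lines mark 1.5-fold. Hoxc5 is the only filled point beyond a dashed line, and Hoxa3 and Hoxd13 are the open ones.

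Hoxc5 had the largest difference of the kept members. It is a cervical to thoracic gene between Hoxc4 and Hoxc6. Its values of 7.23 with control siRNA and 6.50 with β-catenin siRNA give a difference of -0.73, so that its signal was 1.66-fold lower. Of the 500 genes nearest in mean level, 2% differed by as much in either direction, and 1.84% of all kept genes were at least 1.5-fold lower. Its neighbours did not share the difference, which was -0.03 for Hoxc4, -0.02 for Hoxc6 and -0.16 for Hoxc8. Mir615, a microRNA gene inside the RefSeq span of Hoxc5, had 5.78 and 5.63. Hoxa5 and Hoxb5, the paralogs of Hoxc5, differed by -0.07 and -0.05, from values under the filter.

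The remaining kept genes lay within 1.5-fold. The next largest were Hoxd9 at -0.39, Hoxb2 at -0.32, Hoxb9 at -0.29 and Hoxb6 at -0.24. On the positive side were Hoxb3 and Hoxd8 at 0.19 each, Hoxd4 at 0.17, Hoxb7 at 0.15, Hoxa7 at 0.05 and Hoxd3 at 0.02. All 3 kept genes of group 9 were lower (Hoxb9, Hoxd9 and Hoxc9, the last by -0.13), whereas the fourth paralog, Hoxa9, differed by 0.14 under the filter. All 5 kept Hoxc genes were lower to some degree. Hoxc6 differed by so little that its sign turned with median centring of the differences. In the Hoxd cluster 3 of 4 kept genes were higher. The medians over kept members were -0.13 for 5 Hoxc genes, -0.24 for 5 Hoxb genes (-0.062 over 6 when the filter was set from means of probe sets, which admitted Hoxb1), -0.07 for 2 Hoxa genes and 0.10 for 4 Hoxd genes. With anterior taken as groups 1 to 3, central as 4 to 8 and posterior as 9 to 13, the medians were 0.02 over 3 genes, -0.02 over 10 and -0.29 over 3.

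Among the 21 dim genes, Hoxa3 and Hoxd13 differed by at least 1.5-fold. Hoxa3 had 3.59 and 2.89, a difference of -0.70, and Hoxd13 had 3.42 and 4.09, a difference of 0.67. Without the level filter 3 of 37 Hox genes (8.11%) were past 1.5-fold, against 4.58% of all 19938 genes. Differences as large as that of Hoxa3 were found in 3.2% of the 500 genes nearest in level, and as large as that of Hoxd13 in 2.8%. Both genes were dim on both arrays, where the robust SD of the difference was 0.27. Hoxd10 at 0.42 and Hoxc13 at -0.44 came next, and Hoxd11 had the same value on both arrays.

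**Figure D3:**
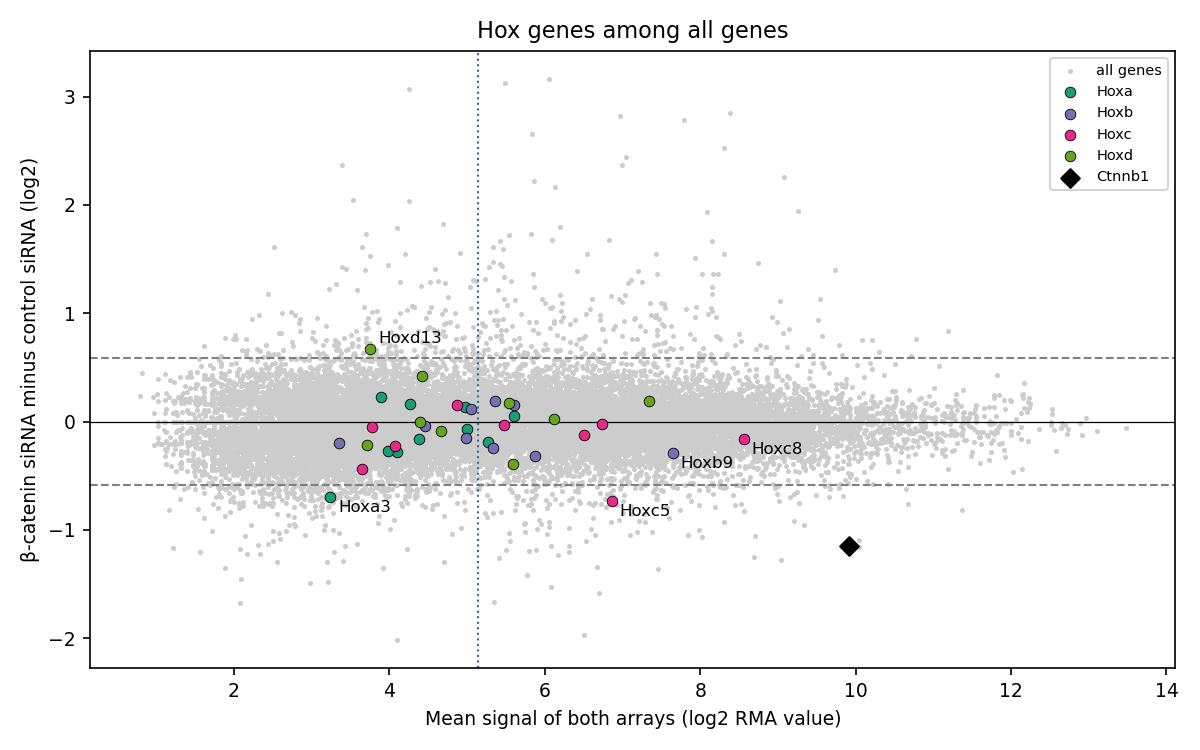
Difference between the arrays (log2) against the mean log2 RMA signal of both, for all 19938 genes (grey), the 37 measured Hox genes (coloured by cluster) and the target Ctnnb1 (diamond); the dotted line is the level filter of 5.13 and dashed lines mark 1.5-fold. All but 3 of the Hox genes lie between the dashed lines, and Hoxc8 lies furthest to the right.

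β-catenin acts on genes through TCF and LEF proteins, which bind letters such as CTTTGAT. This motif, the variant that ends in AA (CTTTGAA) and the variant that ends in TT (CTTTGTT) were searched for. At least 1 of the 3, on either strand, occurred in 4 of the 24 Hox promoter windows (16.7%) and in 13.9% of all windows. The search windows ran from 250 bases before the start to 50 after it, and none of the 3 motifs overlaps another in these 4. Those with a match before the start are shown since they are the Hox windows holding these letters upstream, with the matches in capitals (GRCm38.p6, plus strand, chr2:74704437-74704503 for Hoxd8 and chr2:74674954-74675010 for Hoxd12).
Hoxd8: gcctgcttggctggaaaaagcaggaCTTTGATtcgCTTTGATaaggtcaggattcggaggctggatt
Hoxd12: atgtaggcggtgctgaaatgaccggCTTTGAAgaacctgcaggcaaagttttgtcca
The 2 matches of Hoxd8 begin 153 and 143 bases before the start, and that of Hoxd12 begins 34 bases before it. Hoxd4 and Hoxa11 had a match after the start. The differences of these genes were 0.19 for Hoxd8, -0.21 for Hoxd12, 0.17 for Hoxd4 and -0.28 for Hoxa11, all within 1.5-fold. A match is a description of these letters and not a binding site.

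The Hox clusters also hold microRNA genes whose products repress Hox messages, miR-196 acting on Hoxb8 being the textbook case. Their mature sequences are shown with the seed (bases 2 to 8) in capitals. The miR-10 and miR-196 families each share a seed across clusters, and miR-615-3p shares its seed with none of the others shown. They are given 5′ to 3′ from RefSeq (GRCm38.p6).
mmu-miR-10a-5p: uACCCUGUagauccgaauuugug
mmu-miR-10b-5p: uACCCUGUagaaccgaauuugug
mmu-miR-196a-5p: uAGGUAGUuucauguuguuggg
mmu-miR-196b-5p: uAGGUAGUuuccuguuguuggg
mmu-miR-615-3p: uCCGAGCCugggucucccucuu
Counted from 1 at the 5′ end, miR-10b differs from miR-10a by U12A and miR-196b from miR-196a by A12C, outside the seed in both families. In RefSeq, Mir10a (chr11:96317186-96317208 for the mature form, plus strand) lies inside the span of Hoxb3, and Mir10b (chr2:74726074-74726096, plus strand) inside those of Hoxd3 and Hoxd4. Mir196b (chr6:52230129-52230150, minus strand) lies between Hoxa9 and Hoxa10, Mir196a-1 (chr11:96265187-96265208, plus strand) between Hoxb9 and Hoxb13, Mir196a-2 (chr15:102973365-102973386, plus strand) between Hoxc9 and Hoxc10, and Mir615 (chr15:103014969-103014990, plus strand) inside the span of Hoxc5. Whole-transcript labelling is not designed to capture mature microRNAs, and Mir10a (1.96), Mir10b (1.94) and Mir196a-2 (2.26) had low values that were identical on both arrays. Identical values, at any level, were found for 1880 of all 28944 probe sets. Mir196a-1 had 4.61 and 4.06, Mir196b 3.36 and 3.24, and Mir615 alone passed the filter.

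Among 22 measured neighbours and noncoding genes of the clusters, 8 passed the filter (median difference -0.10). None of these 8 differed by 1.5-fold, where 4.6% of all kept genes did. Evx1 and Evx2, homeobox genes at the high-numbered ends of Hoxa and Hoxd, had 4.57 and 4.61, and 4.61 and 4.49, under the filter like the Hox genes next to them. Hottip, a noncoding RNA gene beside Hoxa13 that helps keep high-numbered Hoxa genes active in distal tissue, had 3.35 and 2.76. Haglr (2.90 and 2.69) in the Hoxd cluster was dim too. Of the genes outside the clusters, Snx11 near Hoxb differed by -0.40, Calcoco1 near Hoxc by 0.26, Skap2 near Hoxa by -0.22 and Mtx2 near Hoxd by -0.16.

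Partners and regulators of Hox proteins mostly passed the level filter, which 51.1% of all genes passed. Of all kept genes 4.6% differed by at least 1.5-fold, so lists this short may hold few or none at that share. Pbx, Meis and Pknox proteins bind DNA together with Hox proteins. Of 8 measured cofactor genes, 7 passed the filter, with none past 1.5-fold and a median difference of 0.17. Meis1 had 8.49 and 8.71, Meis2 7.32 and 7.51, Meis3 6.45 and 6.67 and Pbx4 5.08 and 5.25. Pbx4, whose difference is the median, reached the filter only on the β-catenin siRNA array. The cofactor median was 0.15 with the filter on both arrays and 0.14 with no filter. Of 30 Polycomb genes, 28 passed the filter and none differed by 1.5-fold (median 0.03). The largest were those of Rybp at 0.39, for which a dimmer probe set gave 0.07, Ezh2, the methyltransferase of the Polycomb mark, at 0.38, Scmh1 at -0.32 and Pcgf2 at 0.31. All 17 measured trithorax and demethylase genes passed, with a median of 0.02. Psip1, a chromatin reader that helps tether the trithorax protein to Hox genes, had 6.44 and 7.05 and was 1.53-fold higher, the only one past 1.5-fold, where 2.76% of kept genes were that much higher. Kmt2a, which encodes that trithorax protein and is needed to keep Hox genes on, had 6.49 and 7.02, a difference of 0.54. Kmt2c differed by 0.36 and Kdm6a, which removes the Polycomb mark, by 0.31. Kmt2c (4.95 and 5.31) reached the filter only on the β-catenin siRNA array, so its sign was fixed by the filter.

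Upstream regulators of Hox patterning were mostly dim. Of 7 measured, Cdx1 (5.13 and 5.16), Gdf11 and Egr2 passed the filter. Cdx1, Cdx2 and Cdx4 are homeobox genes that switch on trunk Hox genes in the embryo, and Cdx2 (3.90 and 3.86) and Cdx4 (2.23 and 2.13) were dim. Egr2, a hindbrain regulator of Hoxa2 and Hoxb2 and also an immediate early gene, had 5.83 and 6.48 and was 1.57-fold higher. It was the only one of the 3 kept genes past 1.5-fold, where 2.76% of all kept genes were at least that fold higher. Gdf11, a signal for posterior Hox genes, differed by -0.42.

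Among 12 kept retinoic acid genes, 3 were at least 1.5-fold lower (25%), where 1.84% of all kept genes were. That share rests on 3 genes of a list chosen with earlier results of these data known. Retinoic acid is made by retinaldehyde dehydrogenases, degraded by Cyp26 enzymes and sensed by nuclear receptors that switch on low-numbered Hox genes. Of 17 measured genes, 12 passed the filter, 9 of them lower and 3 higher by any amount, with a median of -0.31 beside -0.02 for all kept genes. Without the filter 10 of the 17 were lower and 6 higher, with a median of -0.25. Stra6, a membrane receptor for retinol uptake, had 6.25 and 5.44 and was 1.76-fold lower. Aldh1a2, which makes retinoic acid, had 5.97 and 5.28 and was 1.61-fold lower. Cyp26b1, which degrades it, had 6.73 and 6.11 and was 1.53-fold lower. The receptor gene Rarg differed by -0.56.

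Of 36 measured positional transcription factors of skin and limb outside the Hox clusters, 17 passed the filter, with a median difference of -0.04. None of these 17 differed by 1.5-fold, where 4.6% of all kept genes did. Tbx15, known for the boundary between dorsal and flank pigmentation in mice, had 9.48 and 9.52, and Twist2, a gene of dorsal dermis, 9.83 and 9.90. Tbx4 and Pitx1 of the hindlimb (3.89 and 3.61, and 4.48 and 4.54) and Tbx5 of the forelimb (4.20 and 4.61) were dim. Other genes with roles in limb patterning passed the filter, among them Prrx1 (10.34 and 10.13), Shox2 (6.23 and 6.10), En1 (5.65 and 5.89) and Lmx1b (5.61 and 5.57). All of these but Twist2 and Prrx1, which are also fibroblast markers here, were picked from the list after their values were seen. By size of difference, Prrx2 was at -0.57, Irx3 at -0.55, Satb1 at 0.48 and Foxf1 at -0.46, for which a dimmer probe set gave -0.20. Satb1 (4.83 and 5.31) reached the filter only on the β-catenin siRNA array, so its sign was fixed by the filter.

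**Figure D4:**
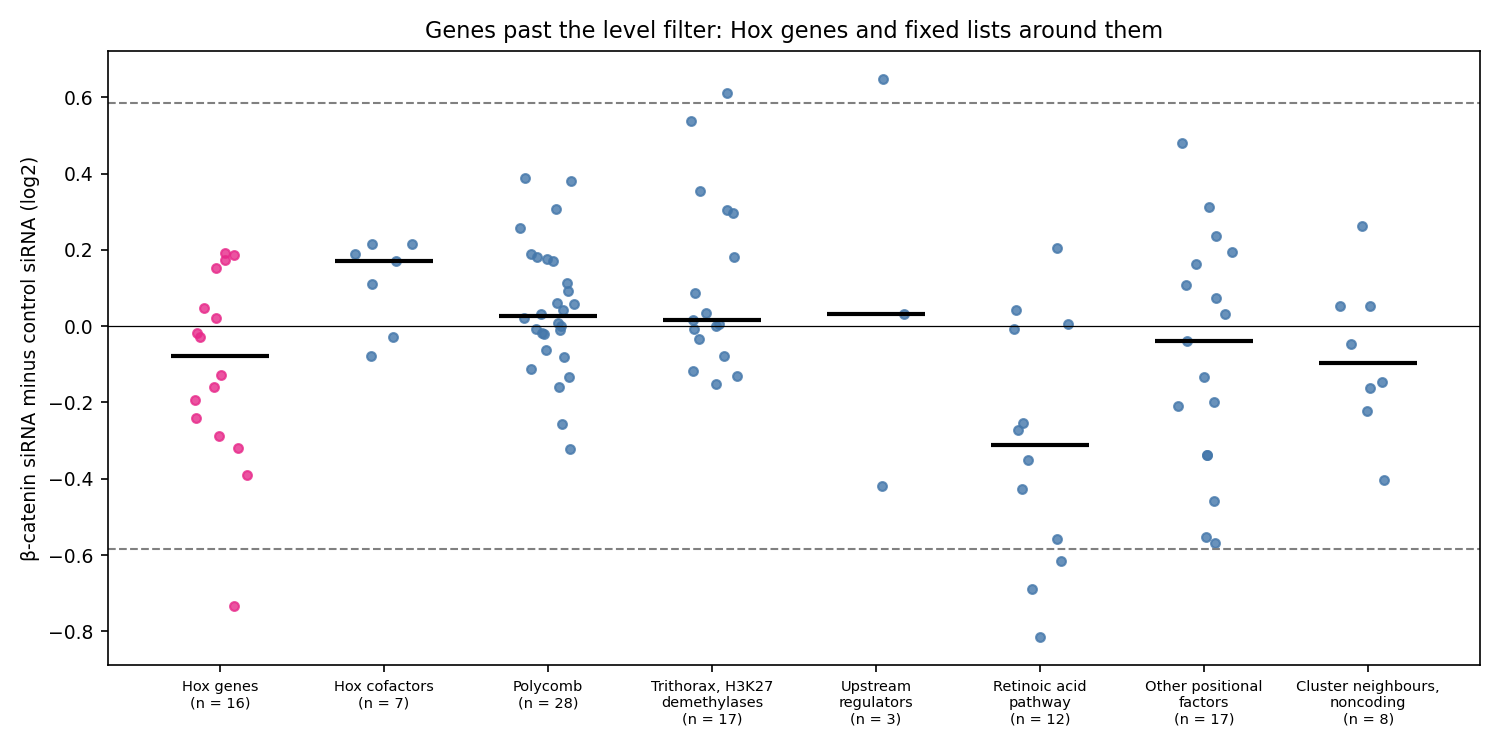
Difference between the arrays (β-catenin siRNA minus control siRNA, log2) for genes past the level filter, with 1 point per gene, a bar at the median of each list and dashed lines at 1.5-fold. The 16 Hox genes centre on -0.08, and the retinoic acid pathway has the lowest median, -0.31 over 12 genes.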

How the data were processed

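Biotin-labelled cDNA from 300 ng of total RNA was hybridised to an Affymetrix whole-transcript array, 1 per group. The deposited values are log2 signals made by the authors with robust multi-array average (RMA), per the submitters' processing notes; RMA equalises distributions, so each difference is relative to other genes, and it compresses those of dim genes. The log2 scale was judged from the values (0.485 to 13.5). The sources used here give no software, version or genome build. Of 28944 probe sets, 21789 had 1 gene symbol; current symbols came from RefSeq (GRCm38.p6) for 21698. The probe set with the highest mean stood for a gene (19938 genes). Genes were kept if the higher value reached 5.13, the median of gene means (10197 genes), and counted at 1.5-fold and 2-fold. Scripts were tested on simulated data (Python 3.11.15, pandas 2.3.3, statsmodels 0.14.6). The members and gene lists were chosen with earlier results of these data known. All measured Hox genes could be named, and from each other list the 4 largest kept differences; further names are background or were chosen after their values were seen. Alternatives were the mean of probe sets, median and lowess centring, no filter and a filter on both arrays.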

Additional observations from a re-analysis of the deposited data

How the results depend on the processing

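With 5 alternatives in place of the main choices, 285 values were recomputed, of which 279 stayed within 1.5 times a count or within 0.16 of a log2 value (the pooled SD between probe sets of a gene) and 6 moved. Part of the 279 could not move. The differences of single Hox genes do not depend on the filter or on the mean of probe sets. The control medians of the clusters are the same under all 5 alternatives. The count of 279 therefore overstates how far the results were put to a test. Without the level filter all 37 Hox genes entered, 2 of them at least 1.5-fold lower and 1 at least 1.5-fold higher. Also past 1.5-fold were 2 positional factors (Meox1 and Meox2, higher) and 1 noncoding gene of the clusters (Hottip, lower), all dim. Of all 19938 genes, 4.58% were past 1.5-fold without the filter. With the mean of probe sets 17 Hox genes passed the filter and the Hoxb median was -0.062 on the log2 scale, since Hoxb1 entered; each Hox gene has 1 probe set, so only the filter's position changed. Centring moved the differences of the kept Hox genes and of Hoxa3, Hoxd13, Hoxd10 and Hoxc13 by no more than 0.053. Those of the other dim Hox genes were not among the recomputed values. No paired analysis was possible because each group has 1 array, and no replicate could be left out. Signals near the array's background limit what the dim members can show.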
